A study of Homo sapiens with 6 samples.

Results

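The genes described here are 10 enzymes and enzyme partners that write, read, erase or feed DNA methylation: the methylcytosine dioxygenases TET2, TET3 and TET1, the DNA methyltransferases DNMT1, DNMT3A and DNMT3B, the thymine glycosylase TDG, the isocitrate dehydrogenases IDH1 and IDH2, and the hemimethylated-DNA reader UHRF1. They were chosen by name, with earlier results of these data known, and all 10 were found among the 26347 gene identifiers of the count table. The RNA came from THP-1, a human line derived from a monocytic leukaemia, kept in serum-containing medium. In triplicate, the cells were given a synthetic microRNA, either a mimic of miR-125a-5p (3 libraries) or a negative control mimic (3 libraries), and RNA was taken 24 h later. Both groups were transfected and neither carried another labelled treatment or allele. The series title speaks of macrophages, whereas the sample labels name monocytic cells and no differentiation step.

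DNA methylation is placed on cytosines of CpG pairs. DNMT3A and DNMT3B set it anew, and DNMT1 copies it to the daughter strand after replication, guided by UHRF1. TET enzymes oxidise 5-methylcytosine with 2-oxoglutarate as cosubstrate, TDG cuts out the oxidised bases, and IDH1 and IDH2 make 2-oxoglutarate from isocitrate. TET2, DNMT3A, IDH1 and IDH2 are among the genes most often mutated in myeloid leukaemia.

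Depth ran from 8256149 to 9356861 counts in the miR-125a-5p libraries and from 8423228 to 10257791 in the control libraries. Control library 1 lay at -38.2 on the leading principal component of log2 CPM (the usual count unit scaled to a common library size, here with TMM factors), where the 5 remaining libraries lay between 1.1 and 16.3. For the cell type markers CPM was scaled by total counts alone, without TMM factors. All 10 markers of the monocytic line were detected, led by CSF1R, and their summed level was 2417 to 2549 CPM in miR-125a-5p libraries and 2500.5 to 2628 in control libraries. MPO, a granule enzyme on that list, was near 0, with 5 to 44 counts per library. The erythroid markers HBB and HBA1 were at 0 in all 6 libraries. The T cell, epithelial and fibroblast lists, each taken alone, summed to at most 2.53 CPM in any library. The B cell list summed to 44.1 to 62.1 CPM in miR-125a-5p and 53.2 to 85.8 CPM in control libraries, nearly all of it from PAX5, while MS4A1 and CD79A had at most 2 counts. Whether the triplicates were separate cultures is not stated, so p-values speak to the spread among these 6 libraries, part of which may be technical.

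The mimic is shown first because its seed, bases 2 to 8 (capitals), is what pairs with messenger RNAs. The RefSeq table (GRCh38.p14) holds 3 mature microRNAs with this seed. miR-125b-5p, which shares it, is shown for comparison and is made from genes on chromosomes 11 and 21, while the gene of miR-125a-5p lies on the plus strand of chromosome 19 at chr19:51693268-51693291.
hsa-miR-125a-5p: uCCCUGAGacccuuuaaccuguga
hsa-miR-125b-5p: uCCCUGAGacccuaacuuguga

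Matches to the seed were searched on the transcript strand of annotated 3′ untranslated regions (3′ UTRs) in GENCODE 29 (GRCh38). The classes nest: the 8mer CTCAGGGA contains the 7mer-m8 CTCAGGG and the 7mer-A1 TCAGGGA, and these contain the 6mer TCAGGG. In the longest annotated 3′ UTR, 5 of the 10 genes held a match of 7 bases and 0 held an 8mer, where 24.3% of 12763 searched genes held a match of 7 or 8 bases and 6.02% an 8mer. Longer 3′ UTRs have more room for a match, and those of TET2 (5331 bases), TET3 (6000) and DNMT3A (6424) were longer than those of 93.3%, 94.9% and 95.8% of searched genes (median 1366 bases). The best match was a 7mer-m8 in TDG and IDH2 and a 7mer-A1 in TET3, DNMT3A and DNMT3B. The sites that carry these matches are printed with the match in capitals, 5′ to 3′ on the strand of the transcript, so that each can be set beside the level of its gene.
TDG, 7mer-m8: ctaagggtaaaCTCAGGGttccctgagcta
TDG, 7mer-A1: agtgccttgcaTCAGGGAttaggagcaatt
IDH2, 7mer-m8: gttctcggacaCTCAGGGcacaggcctgtg
TET3, 7mer-A1: ctattctgataTCAGGGAtgctttttgtag
DNMT3A, 7mer-A1: ttctaggacatTCAGGGAagggcgagtggg
DNMT3B, 7mer-A1: agtgacagcagTCAGGGAcagacatacatt

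All 6 of these matches lie in the 3′ UTR of the last exon. Those of TDG are at chr12:103987583-103987589 and chr12:103988529-103988535 on the plus strand in exon 10 of 10. That of IDH2 is at chr15:90083785-90083791 on the minus strand in exon 11 of 11, and that of TET3 at chr2:74107372-74107378 on the plus strand in exon 11 of 11. The DNMT3A match is at chr2:25228132-25228138 on the minus strand in exon 23 of 23, and the DNMT3B match at chr20:32808903-32808909 on the plus strand in exon 22 of 22. Not every annotated end of these genes holds its match: DNMT3A had it in 1 of 5 annotated 3′ UTRs, DNMT3B in 4 of 6, IDH2 in 1 of 3 and TDG in 1 of 3. DNMT3A held a further 7mer-A1 in the 3′ UTR of a short transcript of 4 exons.

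TET2 had no match in its longest annotated 3′ UTR, but that UTR (5331 bases) belongs to a transcript of 3 exons with 3498 coding bases. The transcripts with 11 exons and 6072 or 6009 coding bases end in a 3′ UTR of 3297 or 3284 bases, and all 3 of these carried the same pair of 7mer-A1 matches, at chr4:105278486-105278492 and chr4:105278575-105278581 on the plus strand. The coding sequence of TET2 also held an 8mer, at chr4:105242902-105242909 in exon 5 of 11, together with 2 of class 7mer-m8. DNMT1, whose 3′ UTRs had no match, held an 8mer in its coding sequence, at chr19:10137845-10137852 on the minus strand in exon 36 of 41. A coding 8mer was present in 6.58% of 12857 searched genes. The matches of TET2 and the coding 8mer of DNMT1 are printed because the longest-UTR search does not show them.
TET2, 3′ UTR, first 7mer-A1: gttctaaaaatTCAGGGAtatttcagctca
TET2, 3′ UTR, second 7mer-A1: tatattctttgTCAGGGAtttaaccctttt
TET2, coding 8mer: aggcaaaagttCTCAGGGAtgtcctattgc
DNMT1, coding 8mer: accagcccatcCTCAGGGAccacatctgta

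How the 10 genes compare in level within THP-1 cells is given per kilobase of exon (CPM per kb), because a longer transcript collects more reads. Over all 6 libraries the order ran from DNMT1 (27.6 to 32.8 CPM per kb) through IDH1 (25.5 ± 2.47 CPM per kb, SD, n = 6), IDH2 (22.4 ± 2.86), TET2 (17.1 ± 1.95), TET3 (14.5 ± 0.313) and UHRF1 (13.1 ± 1.74) to TDG (5.97 ± 0.686), DNMT3A (3.53 ± 0.487), TET1 (2.84 ± 0.146) and DNMT3B (2.23 ± 0.786). DNMT1 stood above 90.2% of 14399 genes with a length, TET2 above 80.8% and DNMT3B above 30.2%. From DNMT1 down to UHRF1 the libraries of each gene overlapped those of the next, so that neighbours in this stretch were not separated by range. Within each of the 6 libraries, however, IDH2 was above TET2. All libraries of TDG (5.03 to 6.69 CPM per kb) were below all of UHRF1, and all of DNMT3A (3.03 to 4.13 CPM per kb) were below all of TDG. TET1 lay just under DNMT3A, without overlap, and overlapped with DNMT3B. The place of TET2 depended on the length used: with the longest coding transcript in place of all annotated exons, TET2 (27.8 ± 3.16 CPM per kb, SD, n = 6) stood above IDH2 (23.4 ± 2.99). The gaps between neighbours depended on it too. With that length IDH1 (49.3 ± 4.77) stood well above IDH2, and TET3 (15.6 ± 0.337) well below TET2.

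Within the families, DNMT1 made up 82.1 ± 3.51% of the per-kilobase level of the 3 DNA methyltransferases in miR-125a-5p libraries and 85.5 ± 0.705% in control libraries (SD, n = 3 each). Among the TET genes TET2 held 47.9 ± 2.63% in miR-125a-5p and 51.4 ± 1.38% in control libraries, and TET3 held 43.4 ± 2.22% in miR-125a-5p and 40.8 ± 1.26% in control libraries. TET1 held the remaining 8.74 ± 0.539% in miR-125a-5p and 7.82 ± 0.423% in control libraries. These shares depended on the length used. With the longest coding transcript TET2 held 58.3 ± 2.57% in miR-125a-5p and 61.6 ± 1.3% in control libraries. TET3 then held 35.1 ± 2.19% in miR-125a-5p and 32.6 ± 1.18% in control libraries. TET2 and TET3 transcripts made up most of the TET messenger RNA in both groups, while TET1, the family member known from embryonic stem cells, was a minor one.

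The comparison of the mimics asked whether any of these transcripts differed after miR-125a-5p. By the quasi-likelihood test of edgeR, adjusted over 14731 genes (Benjamini-Hochberg), 0 of the 10 genes passed the threshold of 0.05, where 0.0272% of all genes tested did. All 4 of those genes were lower and 0% were called higher. DESeq2 also called 0 of the 10, with no adjusted p for DNMT3B. At an unadjusted edgeR p under 0.05, 2 of the 10 passed, where 5.92% of all genes did (2.69% higher, 3.22% lower). They were DNMT3A, which was higher, and TET2, which was lower. In 3 of the 10 the libraries of the groups did not overlap, as in 11.2% of all genes (5.31% higher, 5.9% lower). DNMT3A was the higher one of these, and TET2 and TET3 the lower ones. The 10 fold changes had a median of -0.02 on the log2 scale, with 5 positive and 5 negative, against a median of 0.0 over all genes tested. The libraries are bulk, so fewer cells carrying a transcript and less of it per cell cannot be told apart.

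**Figure D1:**
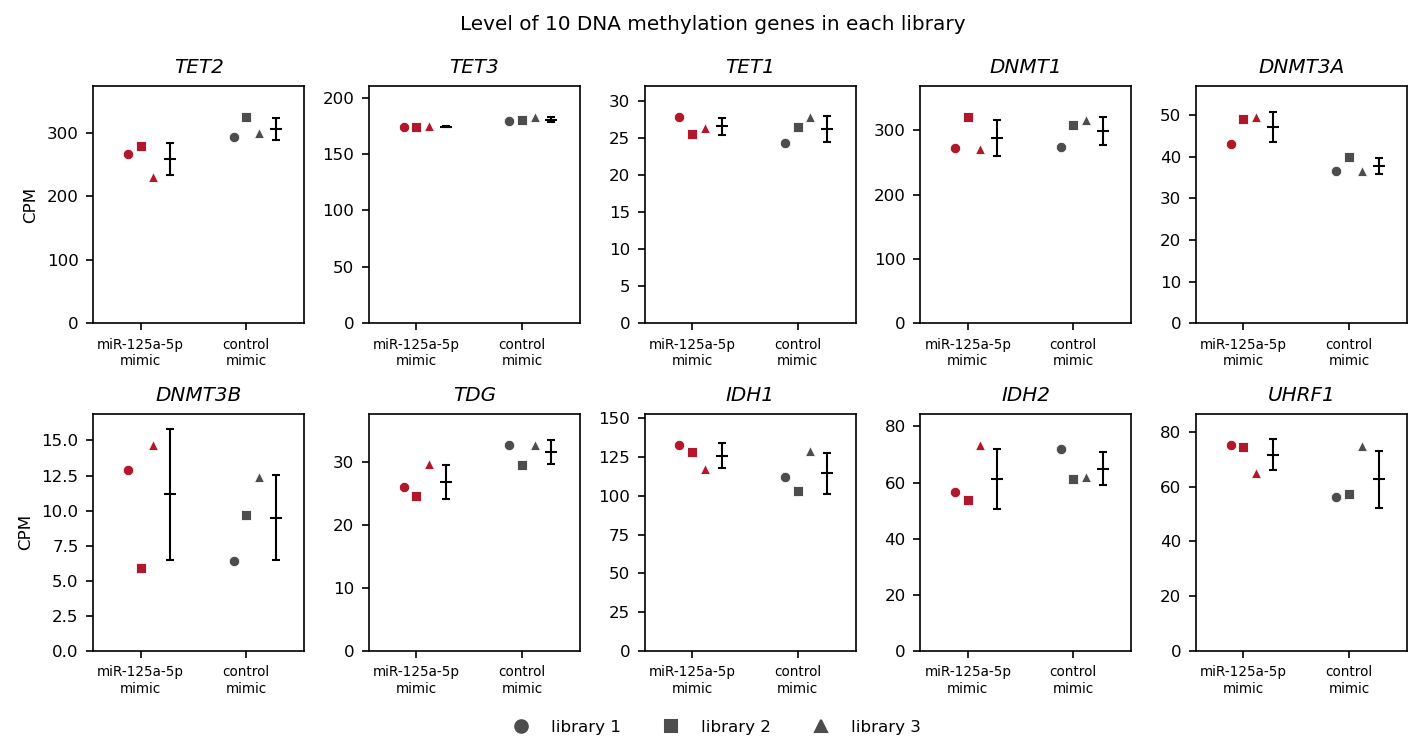
Level of each gene in CPM (vertical axis, from 0) in the 3 miR-125a-5p mimic libraries (red, left) and the 3 control mimic libraries (grey, right); bars are mean ± SD and marker shapes give the library number, which does not pair libraries across groups. TET2 lies at 230.4 to 279 CPM after miR-125a-5p, below all control libraries, and DNMT3A at 43.1 to 49.6 CPM, above all of them.

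TET2, the eraser that is most often mutated in myeloid disease, had 267, 279 and 230.4 CPM in miR-125a-5p libraries 1, 2 and 3, against 293, 325 and 300.1 CPM in control libraries 1, 2 and 3. All miR-125a-5p libraries were below all control libraries, and miR-125a-5p library 3 was the lowest of the 6. The means were 259 ± 25.5 CPM after miR-125a-5p and 306 ± 16.9 CPM in control (SD, n = 3 each). The log2 fold change was -0.24 (SE 0.09, 95% interval -0.43 to -0.05), which is -15.3% with an interval from -25.9% to -3.12%. It did not pass the edgeR test over all genes (adjusted p = 0.731), in which TET2 ranked 352 by p. The size rests in part on single libraries: the log2 fold change was -0.16 without miR-125a-5p library 3 and -0.20 without control library 2, and in both cases the unadjusted edgeR p was above 0.05. Without control library 1, the library that stood apart from the rest, it was -0.27. The counts behind these values were 1924 to 2982 per library, so counting error (about 1.99% per library) was small beside the spread of 9.83% between miR-125a-5p libraries. TET2-AS1, an antisense gene that overlaps the TET2 locus and shares 0 exonic bases with it in GENCODE 29, had 17 to 28 counts in miR-125a-5p and 11 to 23 in control libraries. The strand setting of the counting is not stated, so reads cannot be told apart where exons of a gene and its antisense partner overlap. For TET2 this would apply only if the annotation of the counting, also not stated, holds such an overlap.

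TET3, the second TET enzyme of these cells, carries 1 seed match of 7 bases (printed above) and was the steadiest of the 10. Its level was 174, 174 and 175 CPM in miR-125a-5p libraries and 179, 180.0 and 183 CPM in control libraries. The groups did not overlap, but the gap was small: the log2 fold change was -0.05 (SE 0.09, 95% interval -0.24 to 0.13; edgeR adjusted p = 0.966). The spread of TET3 between libraries of a group (0.527% in miR-125a-5p, 1.14% in control) was below the counting error of about 2.51% per library.

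TET1 had 27.8, 25.5 and 26.3 CPM in miR-125a-5p libraries, against 24.3, 26.5 and 27.8 CPM in control libraries. The groups overlapped fully. The log2 fold change of 0.02 (95% interval -0.28 to 0.32; edgeR adjusted p = 0.99) leaves changes of up to -17.4% or 24.4% within its interval, and its sign turned to -0.04 without control library 1.

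TDG, the glycosylase that completes the removal started by TET enzymes, was the gene of the 10 with a 7mer-m8 and a 7mer-A1 in 1 UTR. It had 26.1, 24.7 and 29.8 CPM in miR-125a-5p libraries, against 32.8, 29.5 and 32.8 CPM in control libraries. MiR-125a-5p library 3 lay just above control library 2, so the groups overlapped. The log2 fold change was the same as that of TET2, -0.24, but with a wider interval (SE 0.14, 95% interval -0.53 to 0.05; edgeR adjusted p = 0.882). With 222 to 334 counts per library, counting error was about 6.17%.

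Among the writers, DNMT3A, a de novo methyltransferase, had 43.1, 49.1 and 49.6 CPM in miR-125a-5p libraries, against 36.7, 39.9 and 36.5 CPM in control libraries. All miR-125a-5p libraries were above all control libraries. The means were 47.3 ± 3.62 CPM after miR-125a-5p and 37.7 ± 1.92 CPM in control (SD, n = 3 each), a log2 fold change of 0.33 (SE 0.12, 95% interval 0.07 to 0.58), or 25.5%. It did not pass the edgeR test over all genes (adjusted p = 0.67). With 1 library left out the value was 0.29 to 0.39. The unadjusted edgeR p was then 0.0502 without miR-125a-5p library 2 and 0.00989 to 0.0465 without any other library. DNMT3A carries the 7mer-A1 printed above in its longest 3′ UTR, 1 of its 5 annotated 3′ UTRs. Whether this site acts in these cells was not tested.

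DNMT3B, the other de novo methyltransferase, was the least abundant and the most variable of the 10. It had 12.9, 5.87 and 14.7 CPM in miR-125a-5p libraries, against 6.38, 9.71 and 12.4 CPM in control libraries. The highest and the lowest library, 2.51-fold apart, were both in the miR-125a-5p group. Counting error alone does not span this: the exact 95% Poisson intervals were 4.41 to 7.66 CPM for miR-125a-5p library 2 and 12.2 to 17.6 CPM for miR-125a-5p library 3. The log2 fold change of 0.24 (SE 0.28, 95% interval -0.35 to 0.82; edgeR adjusted p = 0.951) ran from -0.02 without miR-125a-5p library 3 to 0.55 without miR-125a-5p library 2, so its size and sign rest on single libraries.

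DNMT1, the maintenance methyltransferase, had 272, 321 and 271 CPM in miR-125a-5p libraries, against 274, 308 and 316 CPM in control libraries. The groups overlapped, with a log2 fold change of -0.06 (95% interval -0.25 to 0.14; edgeR adjusted p = 0.966). It was -0.14 without miR-125a-5p library 2, -0.12 without control library 1, and -0.02 without miR-125a-5p library 1, miR-125a-5p library 3 or control library 3. The gene S1PR2 shares 83 exonic bases with DNMT1 on the same strand in GENCODE 29, and its 131 to 145 counts in miR-125a-5p and 173 to 295 in control libraries are few beside the 2261 to 2955 of DNMT1. UHRF1, which brings DNMT1 to hemimethylated DNA, had 75.4, 74.6 and 65.2 CPM in miR-125a-5p libraries, against 56.4, 57.2 and 74.8 CPM in control libraries. Control library 3 lay within the range of the miR-125a-5p libraries. The log2 fold change was 0.19 (SE 0.12, 95% interval -0.06 to 0.44; edgeR adjusted p = 0.884), 0.34 without control library 3 and 0.12 without control library 1. The 26 S phase genes, the phase in which UHRF1 and DNMT1 are made and used, summed to 2602, 2665 and 2676 CPM in miR-125a-5p libraries and 2536, 2606 and 2693 CPM in control libraries. Among control libraries UHRF1 and this sum had the same order, lowest in library 1 and highest in library 3, whereas among miR-125a-5p libraries their orders were opposite. The part of S phase in the level of UHRF1 was not tested.

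The cofactor enzymes showed no separation of the groups. IDH1, the cytosolic enzyme, had 133, 128 and 117 CPM in miR-125a-5p libraries, against 112, 103 and 129 CPM in control libraries. Its log2 fold change was 0.14 (SE 0.10, 95% interval -0.08 to 0.35; edgeR adjusted p = 0.912), with 0.06 without control library 2 and 0.23 without control library 3. IDH2, the mitochondrial enzyme with a 7mer-m8 in its 3′ UTR, had 56.5, 53.7 and 73.5 CPM in miR-125a-5p libraries, against 71.9, 61.2 and 61.9 CPM in control libraries. MiR-125a-5p library 3 was the highest of the 6 and the other two miR-125a-5p libraries were the lowest. The log2 fold change was -0.09 (SE 0.13, 95% interval -0.35 to 0.17; edgeR adjusted p = 0.957). With 1 library left out it lay between -0.24 (without miR-125a-5p library 3) and 0.00 (without miR-125a-5p library 2), with -0.01 without control library 1 and -0.04 without miR-125a-5p library 1. IDH1-AS1, which shares 94 exonic bases with IDH1 on the opposite strand, had 0 to 4 counts in miR-125a-5p and in control libraries.

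**Figure D2:**
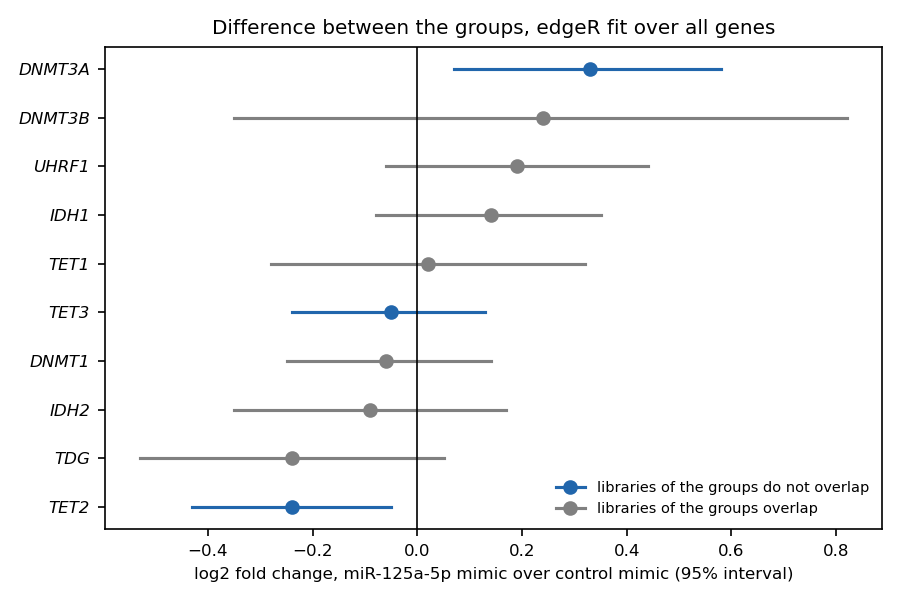
Log2 fold change of each gene, miR-125a-5p mimic over control mimic (horizontal axis), with its 95% interval from the edgeR fit over 14731 genes; blue marks genes whose libraries do not overlap between groups, grey those that do. The intervals of TET2 (-0.43 to -0.05) and DNMT3A (0.07 to 0.58) lie on either side of 0, and those of the other genes include 0. No p-value of the 10 passed adjustment over all genes.

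Genes with a seed match did not share a direction. Of the 6 genes with a match of 7 bases in any annotated 3′ UTR, TET2, TET3, TDG and IDH2 had negative log2 fold changes (-0.24 to -0.05) and DNMT3A and DNMT3B positive ones (0.33 and 0.24). Of the 4 without one, DNMT1 was at -0.06 and TET1, IDH1 and UHRF1 were at 0.02, 0.14 and 0.19. This split leaves out coding sequence, where TET2 and DNMT1 held an 8mer and TET1 and TET3 held matches of 7 bases. None of the fold changes passed the edgeR test over all genes.

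Ratios between the genes were taken within each library, where library scaling cancels. As a log2 ratio of counts, TET2 over TET3 gave 0.62, 0.68 and 0.39 in miR-125a-5p libraries, against 0.71, 0.85 and 0.71 in control libraries. The miR-125a-5p libraries were all below the control libraries, by a mean of -0.19. The two-sided exact permutation p was 0.1, the smallest that 3 against 3 libraries allow, and 0.4 when adjusted over the 4 ratios. The difference was -0.10 without miR-125a-5p library 3. DNMT1 over UHRF1 gave log2 ratios of 1.85, 2.11 and 2.06 in miR-125a-5p libraries, against 2.28, 2.43 and 2.08 in control libraries, a difference of -0.26 (exact permutation p = 0.2). Those groups overlapped by 1 control library. IDH1 over IDH2 differed by 0.24 (exact permutation p = 0.3), with miR-125a-5p library 3 at 0.67 beside 1.23 and 1.25 in the other two miR-125a-5p libraries, and 0.63, 0.75 and 1.06 in control libraries. DNMT3A over DNMT3B differed by 0.14 (exact permutation p = 0.8), with 1.74, 3.07 and 1.75 in miR-125a-5p and 2.52, 2.04 and 1.56 in control libraries.

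**Figure D3:**
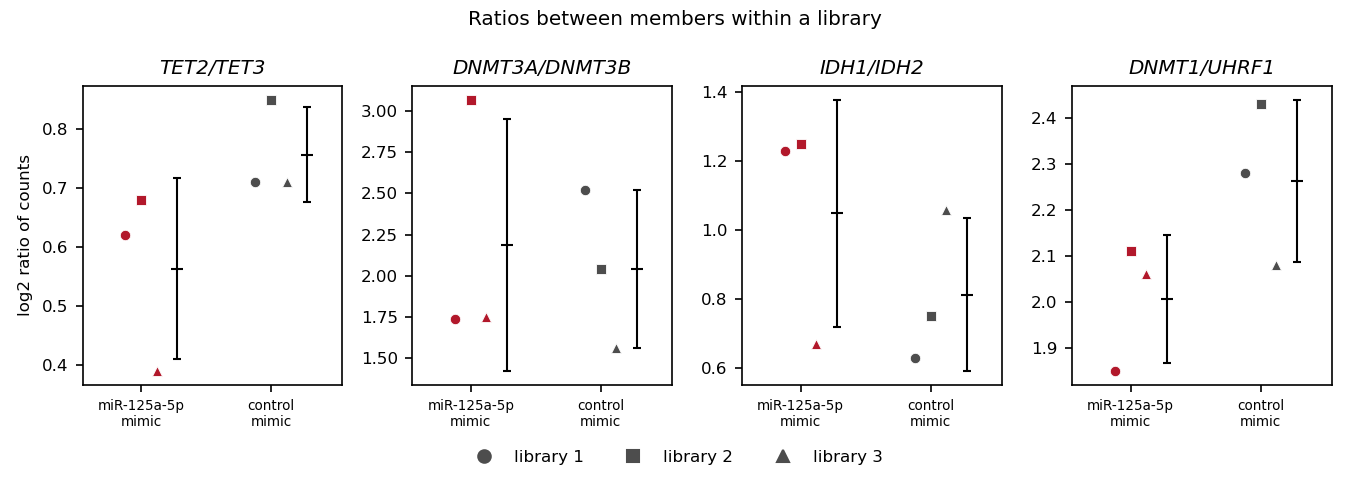
Log2 ratio of the counts of 2 genes within each library (vertical axis, range differs by panel and does not start at 0) for miR-125a-5p mimic (red, left) and control mimic (grey, right) libraries, with mean ± SD. The TET2/TET3 ratio is the 1 ratio of 4 whose groups do not overlap, at 0.39 to 0.68 after miR-125a-5p and 0.71 to 0.85 in control.

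The genes around this pathway were taken from 7 lists. With p adjusted over all genes, edgeR called 0 of their 104 tested genes and DESeq2 called 0. At an unadjusted edgeR p under 0.05, 2 of the 104 were higher (1.92%, where 2.69% of all genes tested were) and 3 lower (2.88%, where 3.22% of all genes were). The groups did not overlap in 11 higher genes (10.6%, where 5.31% of all genes were higher without overlap) and 5 lower genes (4.81%, where 5.9% of all genes were). The higher share of genes without overlap was thus above that of all genes, with no test of the difference, and the other shares were a little below it.

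The methyl-CpG and hemimethyl readers had 5 positive and 3 negative fold changes of 8, with a median of 0.03. Their smallest p was that of ZBTB4, a zinc finger reader of methylated CpG, which had 41.5, 44.0 and 49.1 CPM in miR-125a-5p and 55.5, 53.5 and 51.5 CPM in control libraries (log2 fold change -0.25, edgeR adjusted p = 0.833). MBD3, of the NuRD complex, was at 0.29 and ZBTB33 (Kaiso) at 0.11, both with overlapping groups. In base excision repair, which restores cytosine after TDG has cut, 9 of 15 genes were positive, with a median of 0.05. MBD4, a second thymine glycosylase for methylated sites, was at 0.13, the uracil glycosylase UNG at -0.18 and PARP1, the strand-break sensor, at -0.08, and their groups overlapped.

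Partners of methylation maintenance had 6 positive and 4 negative values of 10, with a median of 0.08. PCNA, the replication clamp that binds DNMT1, had 60.5, 54.2 and 49.5 CPM in miR-125a-5p and 46.5, 48.8 and 48.2 CPM in control libraries, which did not overlap (log2 fold change 0.20, edgeR adjusted p = 0.884). The histone H3 lysine 9 methyltransferases EHMT2 and EHMT1 were at 0.25 and 0.17. DNMT3L, the catalytically inactive partner of the de novo enzymes, was too low to be tested. Among regulators and partners of TET and DNMT proteins 11 of 14 were positive, with a median of 0.07. HDAC2, a histone deacetylase, had the smallest p of that list, with 207, 254 and 139.5 CPM in miR-125a-5p and 153, 169.8 and 176 CPM in control libraries. Its miR-125a-5p libraries held both the highest and the lowest of the 6 values. CBX5, heterochromatin protein 1 alpha, was at 0.16 and DDB1, an adaptor of the CUL4 ubiquitin ligase, at 0.13.

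In the metabolic lists the largest fold change was that of ADK. This enzyme, adenosine kinase, clears the adenosine that remains after methyl transfer. It had 33.5, 33.4 and 30.5 CPM in miR-125a-5p libraries, against 24.1, 23.7 and 22.3 CPM in control libraries. The groups were well apart, with a log2 fold change of 0.47 (SE 0.14, 95% interval 0.18 to 0.76), but ADK did not pass over all genes (edgeR adjusted p = 0.463). AHCY, which splits S-adenosylhomocysteine, was at 0.18 (85.8 ± 3.14 CPM in miR-125a-5p and 75.9 ± 4.19 CPM in control libraries) and the folate enzyme MTHFD1 at -0.14, each with groups that did not overlap. In the methionine and methyl donor list as a whole 9 of 14 genes were positive, with a median of 0.04. In 2-oxoglutarate and 2-hydroxyglutarate metabolism 10 of 17 were positive, with a median of 0.02. IDH3B, a subunit of the NAD-dependent isocitrate dehydrogenase, was at -0.24 and GPT2, an alanine transaminase, at 0.26, with overlapping groups in both.

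S phase genes were split, with 11 positive and 15 negative of 26 and a median of -0.02. FEN1, the flap endonuclease, had 84.3, 88.8 and 76.7 CPM in miR-125a-5p and 111, 103 and 116 CPM in control libraries (log2 fold change -0.40, edgeR adjusted p = 0.373). RRM2, a ribonucleotide reductase subunit, was at 0.30 and MCM4, of the replicative helicase, at -0.20, each with groups apart.

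**Figure D4:**
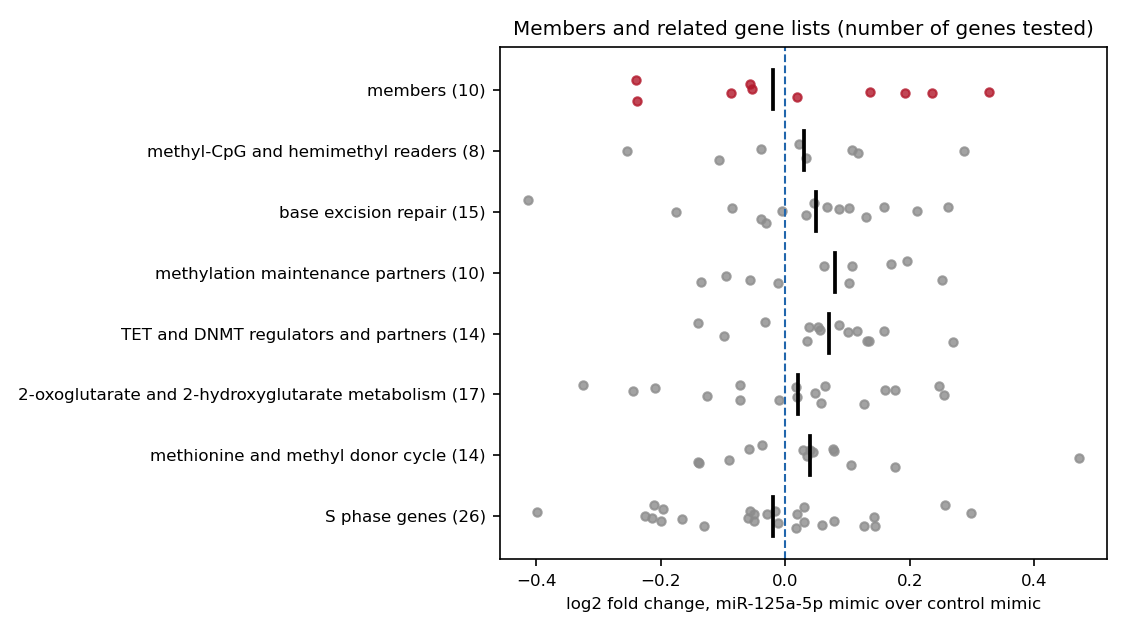
Log2 fold change of each tested gene, miR-125a-5p mimic over control mimic (horizontal axis), for the 10 genes of the report (red) and 7 related lists (grey), with the number tested in brackets; black bars are medians and the dashed line is the median of all 14731 genes. Medians of the lists lie between -0.02 and 0.08, close to the 0.0 of all genes.

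The genes whose pattern over the 6 libraries was most like that of TET2 were found by the Euclidean distance between centred log2 CPM, among 11596 genes with a mean of at least 5 CPM. They were MAP3K7CL (distance 0.096), HSPA6, a heat shock protein (0.099), IFI16, a sensor of intracellular DNA (0.106), ZNF800, a zinc finger protein (0.123), and DHX58, the RNA sensor LGP2 (0.124). ZNF800 had 46.5, 51.2 and 44.7 CPM in miR-125a-5p libraries, against 55.4, 60.0 and 57.0 CPM in control libraries, which share with TET2 the lowest value in miR-125a-5p library 3 and the highest in control library 2. Of the 10 genes DNMT1 was nearest, at rank 745, followed by TET3 at rank 1119, and DNMT3B was among the farthest, at rank 11549. With 6 libraries such a distance describes these samples and carries no test.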

How the data were processed

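The 10 genes, the gene lists and the tests were chosen with earlier results of these data known. The authors deposited raw counts per gene for 6 libraries. The tools named per the submitters' processing notes are bcl2fastq, TopHat and edgeR, with hg19 as the build. Neither the counting tool nor its annotation, strand setting and handling of multiply matching reads is stated. Identifiers were named from RefSeq (GRCh38.p14), which matched 26204 of 26347, with 99.76% of the counts; column names were tied to libraries through the labels' descriptions.

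Genes were kept with filterByExpr (minimum count 10; 14731 of 21274 with any count), scaled by TMM (trimmed mean of M-values) and tested with edgeR 4.0.16 (glmQLFit and glmQLFTest, package default, no covariate) in R 4.3.3, with Benjamini-Hochberg adjustment. Intervals use the SE (fold change over the square root of F) and the degrees of freedom of the fit. The fit was tested on simulated counts. Replicate pairs differed by more than sampling noise, with a mean chi-square per gene of 4.0 to 12.1 within groups. Pairs between groups had 5.13 to 13.5, a range that overlaps it. All libraries were kept. The exact Poisson intervals of single libraries, like depth, cover counting error only. Those of the fold changes also take in the spread between libraries.

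Lengths and 3′ UTRs of at least 20 bases came from GENCODE 29 on GRCh38, another build than that of the counts (12763 genes searched, 86.6% of those tested). The text names all 10 genes, the 3 members of each list with the smallest p, overlapping genes and the 5 genes nearest to TET2; DNMT3L, the marker genes and S1PR2 are named beside them. Some genes that this rule or the marker lists hold are not reported here. Alternatives were other scaling, no filter, DESeq2 1.42.0, voom of limma 3.58.1, the edgeR likelihood ratio test, the replicate number as a block, each library left out, a pseudocount of 1 for ratios, every annotated 3′ UTR and another gene length. Coding sequence matches were added after the data had been seen.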

Additional observations from a re-analysis of the deposited data

How the results depend on the processing

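Of the 10 genes and of the 104 list genes, 0 were called in either direction in each of the 13 alternative fits. Among all genes, 4 lower and 0 higher calls became 41 and 11 without a count filter, 10 and 2 in DESeq2, and 17 and 4 in the edgeR likelihood ratio test. With 1 library left out there were 3 to 14 lower calls (14 without control library 3) and 0 to 2 higher calls (2 without miR-125a-5p library 3). Replicate numbers are shared between the groups, but deviations of same-numbered libraries correlated by only 0.056, 0.014 and -0.016, and only 1 of the 3 miR-125a-5p libraries correlated best with its own number, so the numbers were not taken as pairs. With the replicate number as a block 9 genes were lower, TET2 had a log2 fold change of -0.24 (edgeR p = 0.0105, adjusted p = 0.54) and the TET2/TET3 difference was -0.19 (exact sign-flip permutation p = 0.25, the smallest possible).

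TET2 kept its sign in all 13 fits (log2 fold change -0.30 to -0.16, adjusted p 0.54 to 0.992 over the tools and fits), as did DNMT3A (0.29 to 0.39, 0.555 to 0.992). Reversed signs were seen for TET1 (-0.04 without control library 1, -0.02 without miR-125a-5p library 1; range -0.04 to 0.06), DNMT3B (-0.02 without miR-125a-5p library 3; range -0.02 to 0.55) and the DNMT3A/DNMT3B ratio (-0.10 without control library 3, -0.30 without miR-125a-5p library 2; range -0.30 to 0.39); the cause was not tested. Left-out ranges were -0.25 to -0.10 for TET2/TET3, 0.14 to 0.43 for IDH1/IDH2 and -0.35 to -0.18 for DNMT1/UHRF1, in tests that cannot pass at this size. Seed matches of 7 or 8 bases were in 5 genes in the longest 3′ UTR, 6 in any and 4 in coding sequence. Among all searched genes the shares were 24.3%, 26.4% and 25.2%.

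With the longest coding transcript as length, levels in CPM per kb were higher: in miR-125a-5p and control libraries TET2 had 25.5 and 30.1, TET3 15.3 and 15.9, DNMT1 53.2 and 55.4, DNMT3A 4.98 and 3.97, TDG 8.26 and 9.75, IDH1 51.6 and 46.9, and UHRF1 16.6 and 14.6. DNMT3B had the fewest counts of the 10 genes, 54 to 123 per library. Its spread between libraries (41.9% in miR-125a-5p, 31.7% in control) was above its counting error of about 10.5%.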
